A study of Rattus norvegicus with 24 samples.

Results

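The 8 genes Fkbp5, Sgk1, Tsc22d3, Zbtb16, Cdkn1a, Pdk4, Errfi1 and Ddit4 are known targets of the glucocorticoid receptor in brain. The rule that chose them was membership by gene symbol and used no measured value, although earlier results of these data were known when it was written. All 8 were among the 35032 genes of the count table, and all 8 passed the filter on low counts in every comparison.

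mRNA was sequenced from 2 brain regions, the hypothalamic paraventricular nucleus (PVN) and the central amygdala (CEA). The animals were male Sprague-Dawley rats, which were 7 weeks old when purchased. The 24 libraries formed 8 groups of 3, from 2 regions and 4 treatments. Normal control rats (NC) were not operated on. Hepatectomy rats (HT) had part of the left liver lobe removed under isoflurane, which the methods do not describe for NC rats. EA rats had the same operation with electroacupuncture, current passed through needles at the points ST 36 and SP 6, before and after surgery. Sham rats (SEA) had the operation and the needles without current. All rats were awake and restrained during the needle sessions, NC and HT rats included, so restraint was shared by every group. Tissue was taken a day after the last stimulation. According to the methods, the brain samples were not taken from the same animal, and the labels do not tie a PVN library to a CEA library. The methods give 12 rats for the 4 treatments, fewer than the 24 libraries, so libraries of the 2 regions may share animals, which cannot be told from the labels. Where nothing else names separate animals, the p-values measure the spread between these libraries only.

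Glucocorticoids (corticosterone in the rat) are released from the adrenal gland when neurons of the PVN secrete corticotropin-releasing hormone. The hormone enters cells and binds the glucocorticoid receptor, which then leaves its complex with heat shock protein 90, moves to the nucleus and binds DNA at glucocorticoid response elements. The transcripts of its target genes are widely read as a record of recent hormone exposure in brain tissue. The central amygdala also carries the receptor and takes part in the response to stress.

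Among the 8 genes, Fkbp5 encodes a co-chaperone of the receptor complex that lowers hormone binding, and so takes part in feedback on the receptor itself. Sgk1 encodes a kinase that acts on ion channels and transporters. Tsc22d3 encodes GILZ, a leucine zipper protein with anti-inflammatory action, and Zbtb16 encodes the zinc finger transcriptional repressor PLZF. Cdkn1a encodes p21, an inhibitor of cyclin-dependent kinases. Pdk4 encodes a kinase that inhibits pyruvate dehydrogenase, Errfi1 encodes MIG6, an inhibitor of the EGF receptor, and Ddit4 encodes REDD1, an inhibitor of mTORC1.

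The upstream sequences of 4 genes are shown because the genes are targets of one receptor, and a glucocorticoid response element is a sequence that they might share. RefSeq promoter windows of the assembly GRCr8 matched 7 of the 8 genes, with 11 start sites in all. Zbtb16 was not matched. Each sequence is the 250 bases before a start site, written from 5′ to 3′ on the gene's strand. Capitals mark GAACA or TGTTC, the core letters of the arms of the element on either strand, and the TATA box letters TATAAA on the gene's strand.

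Fkbp5 (chr20:6543556-6543805, minus strand): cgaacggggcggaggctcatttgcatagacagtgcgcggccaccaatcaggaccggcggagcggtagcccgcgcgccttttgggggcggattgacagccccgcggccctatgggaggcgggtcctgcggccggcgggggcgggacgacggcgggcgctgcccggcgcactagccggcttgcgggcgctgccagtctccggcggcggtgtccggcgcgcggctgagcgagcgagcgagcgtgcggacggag
Sgk1, the most upstream of its 3 starts (chr1:24807232-24807481, minus strand): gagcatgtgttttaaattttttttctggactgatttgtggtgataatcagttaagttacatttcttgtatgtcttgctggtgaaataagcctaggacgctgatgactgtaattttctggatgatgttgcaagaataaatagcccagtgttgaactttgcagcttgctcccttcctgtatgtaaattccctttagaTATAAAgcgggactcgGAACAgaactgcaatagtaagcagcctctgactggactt
Tsc22d3, the most upstream of its 3 starts (chrX:109066390-109066639, minus strand): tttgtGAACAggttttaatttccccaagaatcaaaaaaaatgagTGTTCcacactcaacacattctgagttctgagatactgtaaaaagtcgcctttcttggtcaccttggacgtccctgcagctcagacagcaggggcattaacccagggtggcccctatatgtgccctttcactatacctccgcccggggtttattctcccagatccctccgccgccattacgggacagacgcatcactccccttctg
Cdkn1a (chr20:7150682-7150931, plus strand): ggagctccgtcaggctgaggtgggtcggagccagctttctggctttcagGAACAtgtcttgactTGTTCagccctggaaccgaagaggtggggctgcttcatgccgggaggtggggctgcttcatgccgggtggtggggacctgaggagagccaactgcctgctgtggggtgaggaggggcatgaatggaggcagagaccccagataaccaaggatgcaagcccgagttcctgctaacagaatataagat

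The full glucocorticoid response element palindrome, built from the half-site AGAACA, 3 bases of any kind and the reverse complement of that half-site, was in 0 of the 11 windows and in 0.012% of all 33469 windows of the same length. The looser form, built in the same way from GNACA, where N is any base, was in 0 of the 11 windows and in 0.373% of all windows. The single arm AGAACA or TGTTCT was in 0 of 11 windows and in 17.5% of all windows. The shorter core GAACA or TGTTC, which lies within that arm, was in 3 of 11 windows, those of Sgk1, Tsc22d3 and Cdkn1a shown above, against 39.1% of all windows. TATAAA was in 4 of 11 windows, of Errfi1, Sgk1 and Tsc22d3, against 8.06% of all windows. The Fkbp5 window held none of these letters and was the richest in G and C of the 11, at 76% against a median of 51.2% over all windows. A match in these letters is a description and not a binding site, and windows farther from the start were not searched.

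Levels are given as CPM, gene counts scaled to a common library total with TMM factors, where total counts ran from 13152772 to 18607032. The lowest count behind any value of the 8 genes was 46, for Pdk4 in the CEA. Markers of neuroendocrine hypothalamus summed to 410 to 1349 CPM in the PVN libraries and 35.2 to 179 CPM in the CEA libraries, while markers of central amygdala and striatum summed to 2272 to 5115 CPM in the CEA libraries, above the 423 to 523 CPM of the PVN. The libraries of the 2 regions were thus apart by the markers of their labels. The lowest sum of the neuroendocrine markers in the PVN, 410 CPM, was in HT replicate 3. The choroid plexus markers stood out in 3 CEA libraries. They summed to 1785 CPM in replicate 2 of SEA, 1084 CPM in replicate 2 of NC and 385 CPM in replicate 1 of EA, against at most 25.8 CPM in the other CEA libraries. The share of mitochondrial counts was 3.80% in CEA EA replicate 2 and 10.1% to 14.4% in the other CEA libraries.

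Per length of transcript, the genes differed widely in level. By median RPKM (CPM per kilobase of transcript) over the 12 CEA libraries, the order was Ddit4 at 66.7, Tsc22d3 at 47.6, Sgk1 at 35.8, Fkbp5 at 22.4, Errfi1 at 16.3, Cdkn1a at 11.6, Pdk4 at 4.12 and Zbtb16 at 3.25. In the PVN the order was Ddit4 at 50.03, Tsc22d3 at 42.0, Sgk1 at 20.1, Errfi1 at 11.8, Fkbp5 at 9.77, Cdkn1a at 8.12, Zbtb16 at 3.61 and Pdk4 at 3.02. The ranges of neighbours in either order overlapped across libraries, while those of some genes farther apart did not. In the PVN, for example, every library of Tsc22d3 (32.6 to 59.8 RPKM) was above every library of Fkbp5 (8.34 to 27.7 RPKM). Fkbp5 lay in one range with Sgk1 (6.47 to 56.8 RPKM). Overlap of ranges does not compare genes within the same library. In CEA HT replicate 1, where both were at their lowest for the CEA, Ddit4 read 46.6 and its neighbour Tsc22d3 35.3 RPKM.

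Fkbp5 (ENSRNOG00000022523, chromosome 20), the receptor co-chaperone gene, was nearly level among the PVN controls, at 34.2, 31.2 and 29.3 CPM in replicates 1, 2 and 3. The PVN libraries of hepatectomy rats read 28.4, 28.3 and 93.9 CPM, those of EA rats 66.6, 35.4 and 39.2 CPM and those of sham rats 32.0, 31.7 and 45.9 CPM. HT replicate 3 thus stood 3.32 times above the mean of the other HT libraries, which were below every control. All 3 EA libraries were above all 3 controls, a comparison that was not tested. The share of all genes so placed was not counted. The CEA libraries read 81.8, 54.4 and 63.3 CPM in controls, 94.5, 164 and 67.2 CPM after hepatectomy, 119, 61.6 and 80.6 CPM with EA and 71.0, 91.3 and 56.2 CPM with the sham. HT replicate 2 was the highest of all, and the CEA groups overlapped.

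Zbtb16 (ENSRNOG00000029980, chromosome 8), the transcriptional repressor gene, was low in controls and above them in every operated PVN library. PVN controls read 3.16, 6.21 and 3.92 CPM, and hepatectomy rats 6.94, 9.33 and 40.0 CPM. EA rats read 23.3, 11.04 and 9.10 CPM and sham rats 11.3, 14.6 and 9.63 CPM. The lowest of the 9 operated PVN libraries, at 6.94 CPM, was above the highest control at 6.21 CPM. Operated and control libraries thus did not overlap, by a small margin. How many of all genes did not overlap was not counted in either region. In the PVN comparison of operated rats with controls, 29.8% of all genes had an unadjusted p under 0.05 by edgeR. The CEA libraries read 5.43, 3.97 and 6.95 CPM in controls, 5.42, 23.1 and 8.25 CPM after hepatectomy, 27.8, 5.41 and 8.82 CPM with EA and 9.52, 13.2 and 9.44 CPM with the sham. There HT replicate 1 and EA replicate 2 lay within the control range, while all 3 SEA libraries were above it.

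Sgk1 (ENSRNOG00000011815, chromosome 1), the kinase gene, varied widely between libraries of the same treatment. PVN controls read 24.7, 98.9 and 82.5 CPM, hepatectomy rats 23.6, 30.1 and 208 CPM, EA rats 110.1, 47.7 and 148 CPM and sham rats 45.6, 64.5 and 191 CPM. The CEA libraries read 55.9, 214 and 139.6 CPM in controls, 56.0, 433 and 69.5 CPM after hepatectomy, 247, 288 and 93.7 CPM with EA and 85.4, 122 and 511 CPM with the sham. The highest library of a group was 3.08 to 8.78 times its lowest, and all 4 groups of a region overlapped.

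Pdk4 (ENSRNOG00000009565, chromosome 4), the pyruvate dehydrogenase kinase gene, was lower in level and followed the same libraries. PVN controls read 3.41, 7.14 and 5.04 CPM, hepatectomy rats 4.35, 4.35 and 26.2 CPM, EA rats 8.07, 3.40 and 10.1 CPM and sham rats 3.83, 4.48 and 19.02 CPM. The CEA libraries read 2.75, 13.2 and 7.61 CPM in controls, 5.29, 37.5 and 3.51 CPM after hepatectomy, 17.7, 16.4 and 4.35 CPM with EA and 4.89, 5.36 and 43.8 CPM with the sham. Replicate 3 of PVN HT, replicate 3 of PVN SEA, replicate 2 of CEA HT and replicate 3 of CEA SEA stood apart from the rest of their groups.

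Cdkn1a (ENSRNOG00000000521, chromosome 20), the p21 gene, averaged 15.5 ± 1.61 CPM in PVN controls, 21.6 ± 17.3 after hepatectomy, 15.9 ± 4.35 with EA and 15.2 ± 2.63 with the sham (SD, n = 3 here and for the following means). In the CEA it averaged 21.97 ± 8.36 CPM in controls, 46.6 ± 56.7 after hepatectomy, 31.5 ± 12.01 with EA and 27.8 ± 22.04 with the sham. The hepatectomy libraries alone ran from 7.61 to 112 CPM. Ddit4 (ENSRNOG00000057078, chromosome 20), the mTORC1 inhibitor gene, averaged 90.4 ± 19.1 CPM in PVN controls, 97.0 ± 57.8 after hepatectomy, 89.2 ± 20.1 with EA and 95.7 ± 33.0 with the sham. Its CEA means were 123 ± 31.7 CPM in controls, 171 ± 135 after hepatectomy, 139 ± 44.5 with EA and 153 ± 66.4 with the sham. For both genes the SD of the hepatectomy group was larger than its distance from the control mean in either region.

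Errfi1 (ENSRNOG00000058186, chromosome 5), the EGF receptor inhibitor gene, averaged 31.9 ± 4.60 CPM in PVN controls, 38.0 ± 15.4 after hepatectomy, 38.2 ± 7.54 with EA and 44.8 ± 16.2 with the sham. In the CEA it averaged 48.2 ± 8.93 CPM in controls, 49.0 ± 18.1 after hepatectomy, 46.4 ± 6.51 with EA and 67.3 ± 38.3 with the sham, where replicate 3 read 111 CPM. Tsc22d3 (ENSRNOG00000056135, chromosome X), the GILZ gene, was the steadiest of the 8 by its spread within groups. Its PVN means were 82.6 ± 4.18 CPM in controls, 84.0 ± 24.3 after hepatectomy, 87.2 ± 10.6 with EA and 88.7 ± 23.6 with the sham. Its CEA means were 93.1 ± 12.7 CPM in controls, 103 ± 41.4 after hepatectomy, 111 ± 24.6 with EA and 104 ± 33.5 with the sham.

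**Figure D1:**
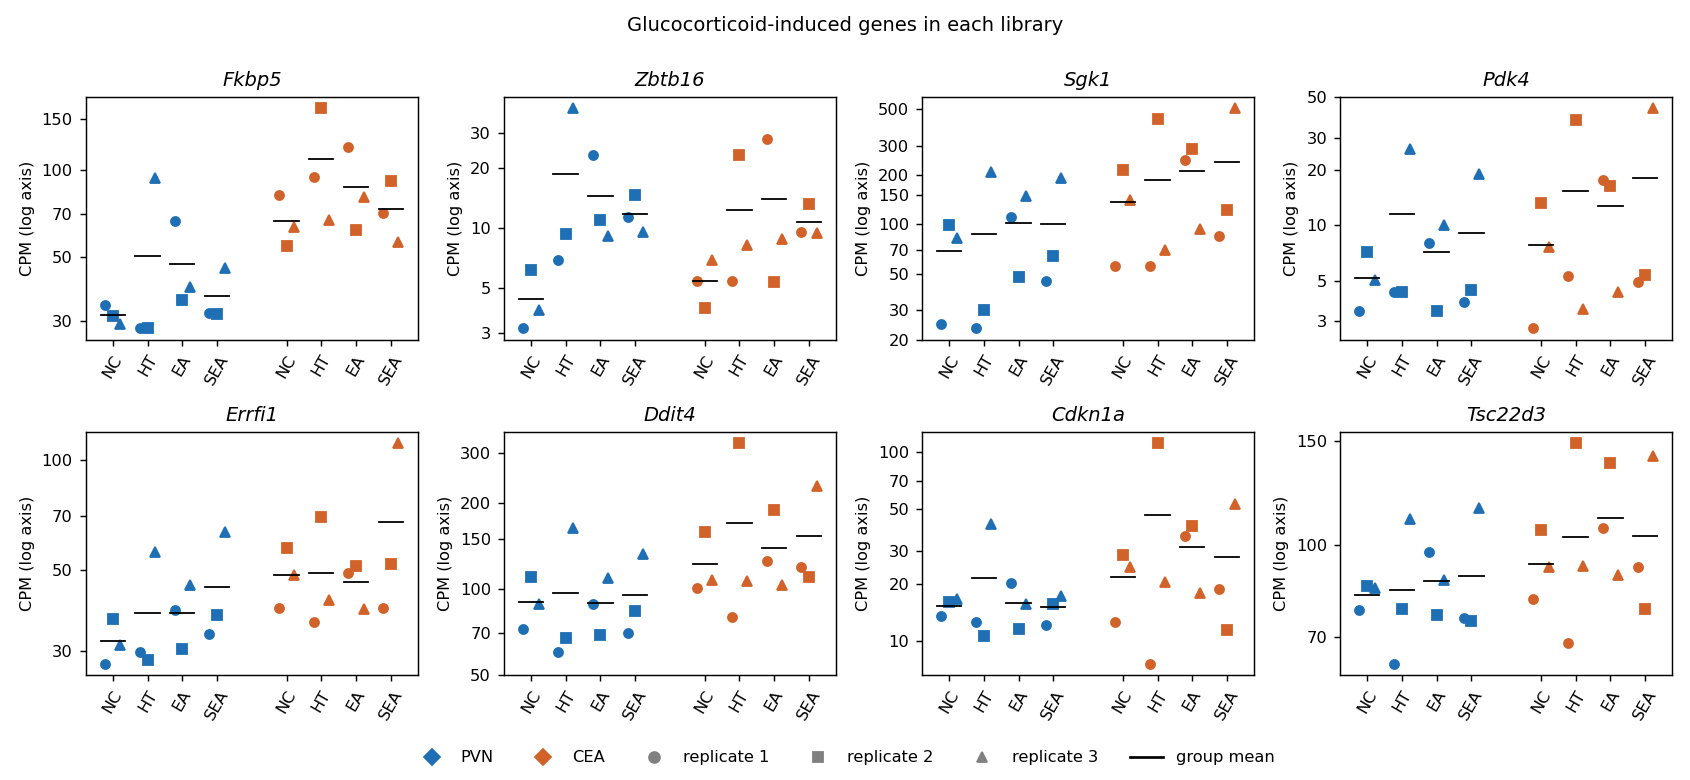
CPM (log axis) of each gene in every library, with PVN in blue, CEA in orange, a marker shape for each replicate number and a bar at each group mean. In 23 of 64 sets of 3 libraries (8 genes in 8 groups) the highest library is at least 2 times the mean of the others. PVN HT replicate 3 and CEA HT replicate 2 are so for Sgk1, while Tsc22d3 has 0 such sets. Zbtb16 is above the PVN controls in all 9 operated PVN libraries, a placing not counted over all genes.

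Libraries high for one gene were often high for others. PVN HT replicate 3 was the highest library of its group for 8 of 8 genes, and so was CEA HT replicate 2. PVN SEA replicate 3 led its group for 7 of 8, all but Zbtb16, and CEA SEA replicate 3 for 6 of 8, all but Fkbp5 and Zbtb16. Among the unoperated rats, PVN NC replicate 2 led for 6 of 8 and CEA NC replicate 2 for 6 of 8. In the EA groups the lead was divided. CEA EA replicate 1 was highest for Fkbp5, Zbtb16 and Pdk4 and replicate 2 for the other 5 genes, and PVN EA replicate 1 was highest for 4 genes, Fkbp5, Zbtb16, Cdkn1a and Tsc22d3, and replicate 3 for the other 4.

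The size of these steps differed by gene. In PVN HT replicate 3 the fold over the mean of the other HT libraries was 7.73 for Sgk1, 6.01 for Pdk4, 4.91 for Zbtb16, 3.56 for Cdkn1a, 3.32 for Fkbp5, 2.57 for Ddit4, 1.92 for Errfi1 and 1.57 for Tsc22d3. In CEA HT replicate 2 it was 8.53 for Pdk4, 7.90 for Cdkn1a, 6.90 for Sgk1, 3.49 for Ddit4, 3.38 for Zbtb16, 2.02 for Fkbp5, 1.85 for Tsc22d3 and 1.80 for Errfi1. Tsc22d3 and Errfi1 had the smallest steps in both libraries, and Sgk1 and Pdk4 were among the 3 largest in both.

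**Figure D2:**
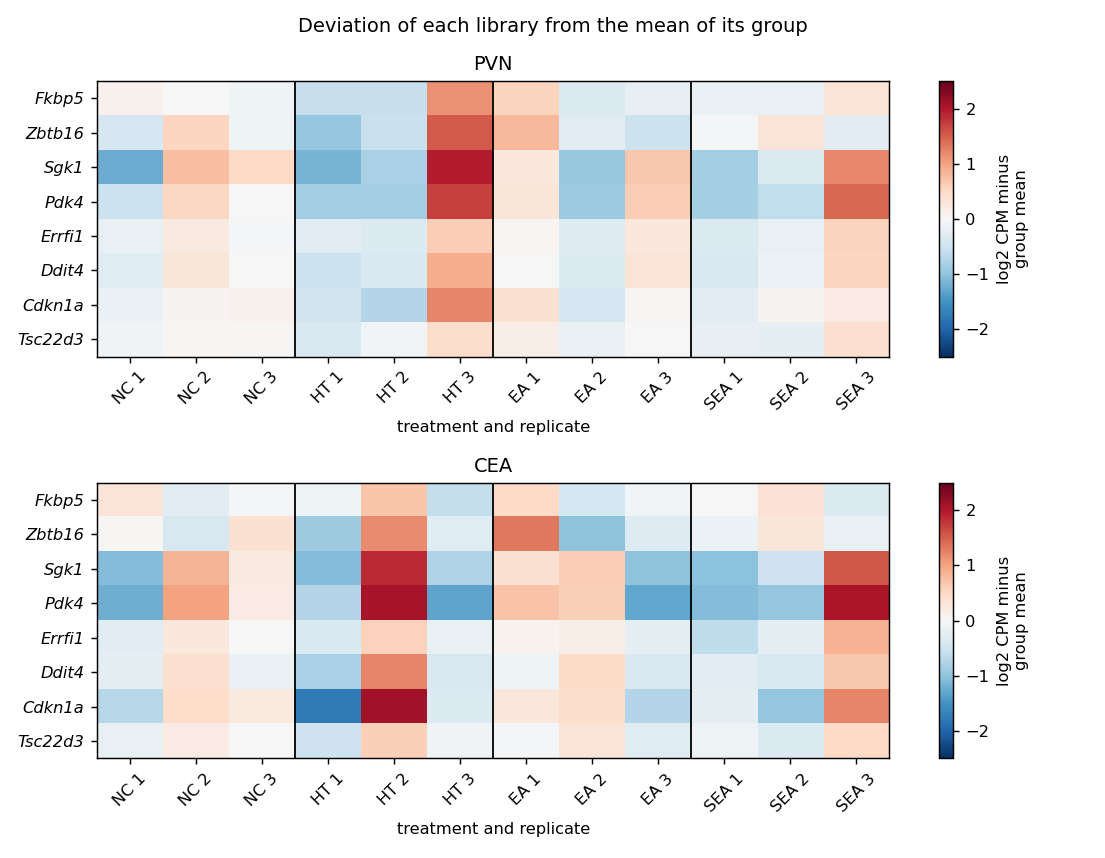
Deviation of log2 CPM (prior count 2) from the mean of the library's own group, by gene (rows) and library (columns), with red above and blue below the group mean. PVN HT replicate 3 and CEA HT replicate 2 are red for 8 of 8 genes, while CEA SEA replicate 3 is red for 6 and not for Fkbp5 and Zbtb16.

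The spread within groups was large against that of other genes. The SD of log2 CPM within groups was 1.22 for Sgk1 in the PVN and 1.25 in the CEA, against a median of 0.172 and 0.255 over 15764 genes. For Pdk4 it was 1.08 and 1.49, and 1.16% and 0.812% of all genes had a larger one. For Cdkn1a the SD was 0.59 in the PVN and 1.21 in the CEA, for Zbtb16 0.81 and 0.84, for Ddit4 0.51 and 0.67, for Fkbp5 0.58 and 0.46, for Errfi1 0.41 and 0.49, and for Tsc22d3 0.29 and 0.40. All 8 genes were above the median gene in each region. Tsc22d3 was nearest to it, with 24.8% and 23.9% of genes more variable.

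The comparison of HT with NC asks what surgery, together with its anesthesia, did in each region. The methods describe no sham operation for NC rats, so surgery and anesthesia cannot be told apart. With 3 libraries a group and this spread, 0 of 8 genes passed an adjusted p of 0.05 by edgeR in the PVN, where 0.0120% of 16727 genes did. At an unadjusted p under 0.05 the count was 1 of 8, Zbtb16, near the background of 11.0% of genes. DESeq2 called 0 of 8, and 30 of 18013 genes in all. All 8 log2 fold changes were positive, with a median of 0.44 against -0.01 over all genes tested. For Zbtb16 the log2 fold change was 2.10 (SE 0.67, unadjusted p = 0.0151, adjusted p = 0.418). It was 0.70 (SE 0.45, adjusted p = 0.477) for Fkbp5, 0.37 (SE 0.85, adjusted p = 0.846) for Sgk1 and 0.05 (SE 0.19, adjusted p = 0.910) for Tsc22d3. HT replicate 3 decided most of these signs. Without it 7 of 8 genes were negative, all but Zbtb16, and the median was -0.22. The log2 fold changes were then -0.13 for Fkbp5, -1.33 for Sgk1, -0.20 for Tsc22d3, -0.38 for Cdkn1a, -0.24 for Pdk4, -0.11 for Errfi1 and -0.48 for Ddit4, with Zbtb16 at 0.89. Leaving out NC replicate 1 turned Sgk1, to -0.034, and Ddit4, to -0.014.

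In the CEA, HT against NC gave 0 of 8 genes at an adjusted p under 0.05 by edgeR, where 0% of 16413 genes passed. DESeq2 called 0 of 8, and 26 of 17464 genes in all. At an unadjusted p under 0.05 by edgeR 0 of 8 passed, where 3.75% of all genes did. All 8 log2 fold changes were again positive, with a median of 0.60 against 0.02 over all genes tested. Fkbp5 had 0.72 (SE 0.32, adjusted p = 0.918), Sgk1 0.46 (SE 0.81, adjusted p = 0.940) and Tsc22d3 0.16 (SE 0.27, adjusted p = 0.939). HT replicate 2 decided most of these signs too. Without it 6 of 8 genes were negative, all but Fkbp5 and Zbtb16, and the median was -0.34. The log2 fold changes were then -1.11 for Sgk1, -0.20 for Tsc22d3, -0.63 for Cdkn1a, -0.83 for Pdk4, -0.31 for Errfi1 and -0.38 for Ddit4, with Fkbp5 at 0.29 and Zbtb16 at 0.34. With replicate numbers as a block, 0 of 8 genes passed, Sgk1 was 0.019 and Errfi1 turned to -0.012. Fkbp5 was then 0.63 (SE 0.30, adjusted p = 0.749). The labels do not tie NC to HT libraries by number, and the reason for the block was their common deviations in these same data. The interaction of HT with region passed for 0 of 8 genes by edgeR at an adjusted p under 0.05 (0% of 17405 genes). It passed for 0 of 8 at an unadjusted p under 0.05 (12.1% of genes). DESeq2 called 0 of 8, and 1 of 25702 genes in all.

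Because HT, EA and SEA rats were all operated on, the mean of the 3 groups was also compared with NC in each region. In the PVN 0 of 8 genes passed an adjusted p of 0.05 by edgeR, against 0.0639% of 17211 genes, and 1 of 8 passed unadjusted, against 29.8%. This was Zbtb16. In 9 of 9 operated libraries it was above all controls, a placing not counted over all genes. Its log2 fold change was 1.74 (SE 0.54, unadjusted p = 0.00721, adjusted p = 0.0789), with a mean of 15.0 CPM in operated and 4.43 CPM in NC libraries. DESeq2 called it (log2 fold change 1.76, adjusted p = 0.0185) along with 18.0% of all genes it tested, and edgeR without NC replicate 2 called it (2.08, adjusted p = 0.0294) along with 33.7%. The other 7 genes were not called by either. Without HT replicate 3 it was 1.34 (adjusted p = 0.102). The largest share of genes at an unadjusted p under 0.05 outside the comparison of regions was in this comparison, so that 1 of 8 lies below the background.

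The other PVN values were 0.82 (SE 0.65) for Pdk4, 0.50 (SE 0.35) for Fkbp5, 0.50 (SE 0.68) for Sgk1, 0.35 (SE 0.24) for Errfi1, 0.18 (SE 0.34) for Cdkn1a, 0.09 (SE 0.17) for Tsc22d3 and 0.07 (SE 0.29) for Ddit4. Their adjusted p-values ran from 0.343 to 0.893. Without HT replicate 3, Sgk1, Cdkn1a and Ddit4 turned to -0.070, -0.12 and -0.13, and Pdk4, Fkbp5, Errfi1 and Tsc22d3 moved to 0.35, 0.23, 0.22 and 0.0013. Ddit4 also turned to -0.065 without NC replicate 1 and to -0.032 without SEA replicate 3.

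In the CEA 0 of 8 genes passed by edgeR in operated against NC, against 0% of 17046 genes. DESeq2 called 0 of 8, and 12 of 20738 genes in all. By edgeR 1 of 8 passed unadjusted, against 2.82% of all genes. Zbtb16 was again the one, at 1.17 (SE 0.53, unadjusted p = 0.0460, adjusted p = 0.9998). Its unadjusted p was above 0.05 without EA replicate 1 (log2 fold change 0.85), without HT replicate 2 (0.89) and without each NC or SEA library. The other values were 0.95 (SE 0.88) for Pdk4, 0.65 (SE 0.68) for Cdkn1a, 0.62 (SE 0.72) for Sgk1, 0.41 (SE 0.27) for Fkbp5, 0.33 (SE 0.39) for Ddit4, 0.19 (SE 0.24) for Tsc22d3 and 0.15 (SE 0.29) for Errfi1, each with an adjusted p of 0.9998. Without HT replicate 2 each of the 8 values was smaller. Pdk4 was then 0.35, Cdkn1a 0.074, Sgk1 0.10, Fkbp5 0.27, Ddit4 0.039, Tsc22d3 0.069 and Errfi1 0.036. Errfi1 was -0.039 without SEA replicate 3.

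The comparisons of EA with HT, SEA with HT and EA with SEA ask what needling with and without current added after surgery. By edgeR, 0 of 8 genes passed an adjusted p of 0.05 in any of them, and 0 of 8 passed at an unadjusted p under 0.05. DESeq2 called 0 of 8. Over all genes DESeq2 called from 3 of 23894 (SEA against HT in the CEA) to 100 of 20375 (EA against HT in the PVN). The shares that follow are by edgeR. In the PVN the shares of all genes at an adjusted and unadjusted p under 0.05 were 0.0961% and 5.67% for EA against HT, 0% and 4.38% for SEA against HT, and 0% and 5.21% for EA against SEA. In the CEA they were 0% and 3.19% for EA against HT, 0% and 3.07% for SEA against HT, and 0% and 1.99% for EA against SEA. The median log2 fold change of the 8 genes ran from -0.20 (SEA against HT in the PVN) to -0.0092 (EA against SEA in the PVN).

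For EA against HT in the PVN, the log2 fold changes were -0.11 (SE 0.46, adjusted p = 0.995) for Fkbp5, 0.20 (SE 0.75, adjusted p = 0.995) for Sgk1 and 0.04 (SE 0.19, adjusted p = 0.995) for Tsc22d3. In the CEA they were -0.32 (SE 0.36, adjusted p = 0.937) for Fkbp5, 0.16 (SE 0.76, adjusted p = 0.987) for Sgk1 and 0.10 (SE 0.29, adjusted p = 0.969) for Tsc22d3. Each of these 6 values took the other sign when 1 library or another was left out. Without PVN HT replicate 3, Fkbp5 was 0.72 and Sgk1 1.91, and without CEA HT replicate 2, Fkbp5 was 0.11 and Sgk1 1.74. Without HT replicate 1, Tsc22d3 was -0.13 in the PVN and -0.12 in the CEA. All comparisons with HT share its libraries and the one that stands apart among them.

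**Figure D3:**
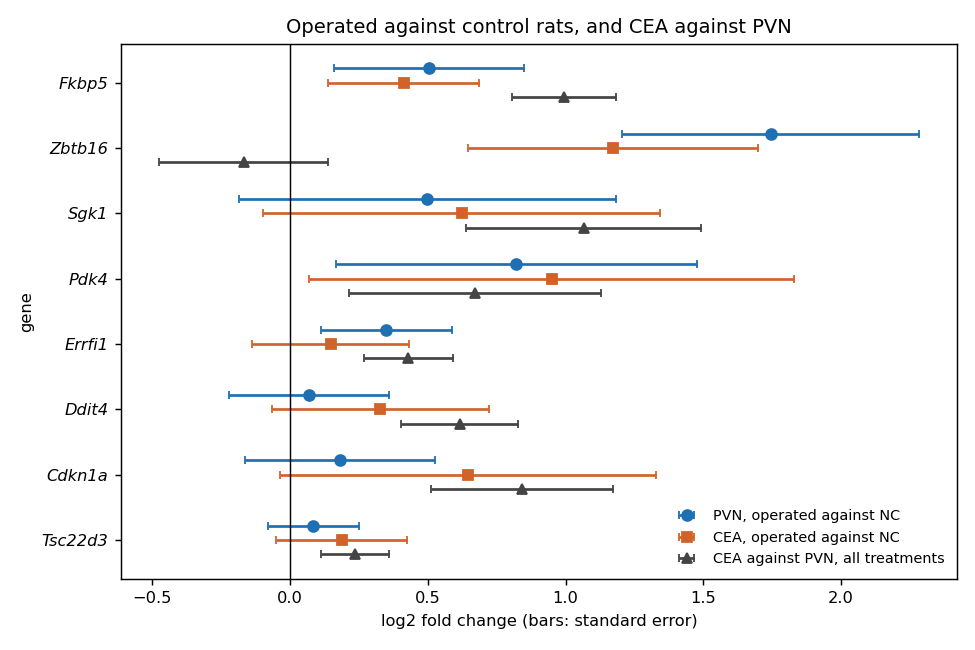
log2 fold change with its standard error for operated against NC in the PVN (blue circles) and CEA (orange squares), and for CEA against PVN over all treatments (grey triangles). Zbtb16 has the largest values for operation, 1.74 and 1.17, and Fkbp5 and Sgk1 the largest for region, 0.99 and 1.07.

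The comparison of CEA with PVN asks where the 8 genes stood higher, whatever the treatment. Over all 24 libraries with treatment as a covariate, 5 of 8 genes were higher in the CEA than in the PVN at an adjusted p under 0.05 by edgeR and 0 were lower, against 56.9% of 17355 genes called in either direction and 27.2% called higher in the CEA. Fkbp5 had a log2 fold change of 0.99 (SE 0.19, adjusted p = 9.34e-05), Sgk1 1.07 (SE 0.43, adjusted p = 0.0366), Cdkn1a 0.84 (SE 0.33, adjusted p = 0.0333), Ddit4 0.62 (SE 0.21, adjusted p = 0.0165) and Errfi1 0.43 (SE 0.16, adjusted p = 0.0269). Pdk4 at 0.67 (SE 0.46, adjusted p = 0.221), Tsc22d3 at 0.24 (SE 0.12, adjusted p = 0.109) and Zbtb16 at -0.17 (SE 0.31, adjusted p = 0.663) did not pass. The fit takes the 24 libraries as independent, and no pairing of the regions by animal was used, since the labels give none. The median of the 8 was 0.64 against -0.01 over all genes tested.

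The Fkbp5 and Ddit4 calls held under every alternative, with adjusted p-values of at most 0.000818 and 0.0460. The Sgk1 call was lost without any 1 of 11 libraries, at an adjusted p of 0.123 without CEA HT replicate 2 and 0.105 without CEA SEA replicate 3, while its log2 fold change stayed between 0.78 and 1.38 when single libraries were left out. The others were replicates 1 and 2 of CEA EA, replicate 2 of CEA NC, replicate 1 of PVN NC, replicates 1 and 2 of PVN HT, replicate 2 of PVN EA and replicates 1 and 2 of PVN SEA. Cdkn1a was lost without CEA HT replicate 2 (log2 fold change 0.50, adjusted p = 0.150), CEA SEA replicate 3 (0.68, adjusted p = 0.0863), replicate 2 of CEA NC, CEA EA, PVN HT or PVN EA, or replicate 1 of PVN HT or PVN SEA. Errfi1 was lost without CEA SEA replicate 3 (0.31, adjusted p = 0.0713), CEA HT replicate 2 or PVN SEA replicate 1. Tsc22d3 passed without CEA HT replicate 1 (0.28, adjusted p = 0.0450, with 56.5% of all genes called), and Zbtb16 was 0.12 without PVN HT replicate 3. Pdk4 was 0.31 without CEA SEA replicate 3. Leaving out the 3 CEA libraries with choroid plexus markers above 100 CPM left 3 of 8 genes, Fkbp5, Cdkn1a and Ddit4, where 52.5% of all genes were called. Sgk1 was then 1.01 (SE 0.48, adjusted p = 0.0821) and Errfi1 0.43 (SE 0.18, adjusted p = 0.0521), close to their values with those libraries.

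Some cell type markers also differed between the regions. All 10 oligodendrocyte markers were detected, and their sum ran from 10378 to 17537 CPM in the PVN and from 27329 to 46152 CPM in the CEA, with no overlap. The 6 microglia markers summed to 278 to 402 CPM in CEA libraries and to 201 to 276 CPM in PVN libraries. The 6 vessel markers in the table, 1 of them at 0 in every library, summed to 222 to 383 CPM in CEA libraries and to 157 to 219 CPM in PVN libraries. The sums of the 7 astrocyte markers (2599 to 3857 CPM in the CEA, 2986 to 3816 CPM in the PVN) and of the 5 neuron markers (1816 to 2941 CPM and 2471 to 3016 CPM) overlapped, with the lower median in the CEA. Their part in the higher levels of Fkbp5, Sgk1, Cdkn1a, Ddit4 and Errfi1 was not tested. In bulk tissue a different share of cells of a type and a different amount of RNA per cell cannot be told apart.

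To see whether the 8 genes varied as a unit, their deviations from group means were correlated across the 12 libraries of each region, for 56 pairs in all. P-values came from an exact two-sided permutation of libraries within groups, which has 1296 arrangements and cannot go below 0.00077, and were adjusted over the 56 pairs. Sgk1, Tsc22d3, Cdkn1a, Pdk4, Errfi1 and Ddit4 went closely together. Among the 15 pairs of these 6 genes, Pearson's r ran from 0.78 to 0.99 in the PVN and from 0.83 to 0.98 in the CEA. Spearman's rho ran from 0.75 to 0.96 and from 0.75 to 0.98. All 15 pairs passed an adjusted p of 0.05 in each region, with the largest at 0.0378 in the PVN and 0.0240 in the CEA. Without the 2 libraries farthest from the median, r ran from 0.65 to 0.98 in PVN libraries and from 0.72 to 0.96 in CEA libraries. For Sgk1 with Pdk4, r was 0.96 (rho 0.85, adjusted p = 0.00786) in the PVN and 0.98 (rho 0.83, adjusted p = 0.0153) in the CEA.

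In the CEA, Fkbp5 and Zbtb16 went with each other more than with the 6, a division that was noticed in these correlations and is a description. In the PVN it was not seen, since Fkbp5 and Zbtb16 each had a larger r with Cdkn1a than with each other. For Zbtb16 with Cdkn1a it was 0.85 there (rho 0.73, adjusted p = 0.0978). The r of Fkbp5 with Zbtb16 was 0.83 in the PVN (rho 0.70, adjusted p = 0.146, 0.44 without the 2 farthest libraries). In the CEA it was 0.80 (rho 0.81, adjusted p = 0.0511, 0.57 without the 2 farthest). In the CEA the 12 pairs between Fkbp5 or Zbtb16 and the 6 genes had r from -0.03 to 0.46, rho from -0.13 to 0.22, and 0 adjusted p-values under 0.05. In the PVN the same 12 pairs had r from 0.53 to 0.93, rho from 0.40 to 0.87, and 2 passed, Fkbp5 with Tsc22d3 (r = 0.83, adjusted p = 0.0355) and Fkbp5 with Cdkn1a (r = 0.93, adjusted p = 0.0360). Fkbp5 with Sgk1 had r = 0.74 (rho 0.54, adjusted p = 0.0934) in the PVN and 0.12 (rho 0.01, adjusted p = 0.857) in the CEA. Single libraries moved these values. Without PVN HT replicate 3 the r of Fkbp5 with Sgk1 was 0.37 and that of Fkbp5 with Zbtb16 0.42, and without CEA HT replicate 2 they were -0.51 and 0.67. Without CEA SEA replicate 3 they were 0.36 and 0.82. The difference of r between the regions was not tested.

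The libraries behind the division can be read from the levels. CEA NC replicate 2 held 3.83 times the Sgk1 of NC replicate 1 and the lowest Fkbp5 of the NC group. CEA SEA replicate 3 had the highest Sgk1 of all libraries, 511 CPM, and the lowest Fkbp5 of its group, 56.2 CPM. CEA EA replicate 2 had the highest Sgk1 of its group, 288 CPM, with the lowest Fkbp5 and Zbtb16 of the group, 61.6 and 5.41 CPM. It is also the library with a mitochondrial share of 3.80%. Without it the r of Fkbp5 with Sgk1 in the CEA was 0.23 and that of Fkbp5 with Zbtb16 was 0.75. The methods left a CEA EA library out of a co-expression network and do not say which. CEA EA replicate 1 and CEA HT replicate 2 were high in genes of both sets.

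**Figure D4:**
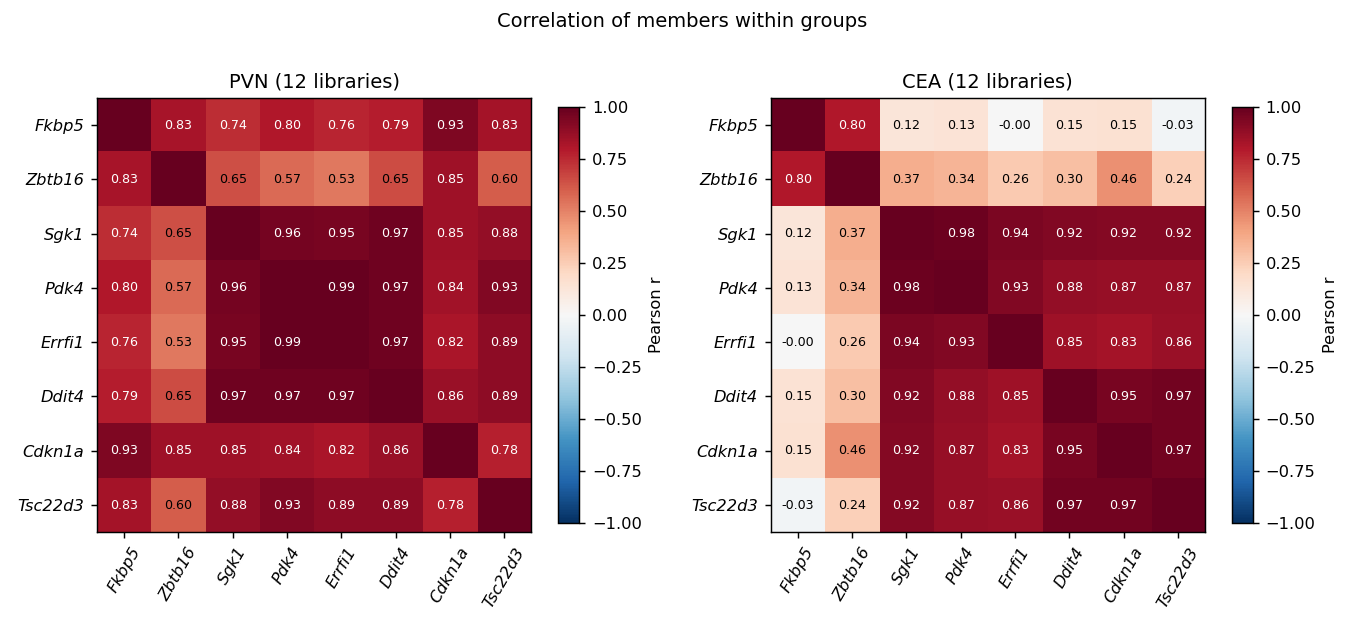
Pearson r of log2 CPM deviations from group means for each pair of the 8 genes over 12 libraries, in the PVN (left) and the CEA (right). The 6 genes from Sgk1 to Tsc22d3 form a block, of r from 0.83 to 0.98 in the CEA and from 0.78 to 0.99 in the PVN, and Fkbp5 and Zbtb16 stand outside it in the CEA, with r from -0.03 to 0.46.

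The same was asked of 27 other genes that respond to glucocorticoids and had a mean of at least 1 CPM, each correlated with Sgk1 and with Fkbp5. In the CEA 21 of 27 had the higher r with Sgk1, with a median r of 0.71 with Sgk1 and 0.32 with Fkbp5, while the median over 15764 genes was 0.02 and 0.01. Cebpd, a transcription factor gene, had r = 0.94 with Sgk1 and 0.09 with Fkbp5. The clock gene Per1 had 0.83 and 0.07, and Nfkbia, whose protein inhibits NF-kappaB, had 0.92 and 0.01. Dusp1, a phosphatase of MAP kinases, had 0.81 and -0.36. The 6 genes nearer to Fkbp5 were the metallothionein genes Mt1 (0.60 with Sgk1, 0.70 with Fkbp5) and Mt2A (0.65 and 0.72), the sulfotransferase gene Sult1a1 (0.67 and 0.76), the phagocytic receptor gene Mertk (0.06 and 0.66), the glutamine synthetase gene Glul (0.32 and 0.33), and Rgcc, which was negative with both (-0.49 and -0.10).

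In the PVN the division was less plain, with 15 of 27 nearer to Sgk1 and medians of 0.81 and 0.77 against 0.02 and -0.02 over all genes. Mt1, Mt2A, Sult1a1 and Mertk were nearer to Fkbp5 there too, at 0.90, 0.93, 0.82 and 0.77. Their r with Sgk1 was 0.68, 0.69, 0.61 and 0.75, so that Mertk was near the line of equal r. Dusp1 and Per1 were nearer to Sgk1, at 0.77 and 0.92, with 0.25 and 0.62 for Fkbp5. Per1, Nfkbia, Dusp1, Mt1 and Glul were named after their values were seen.

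**Figure D5:**
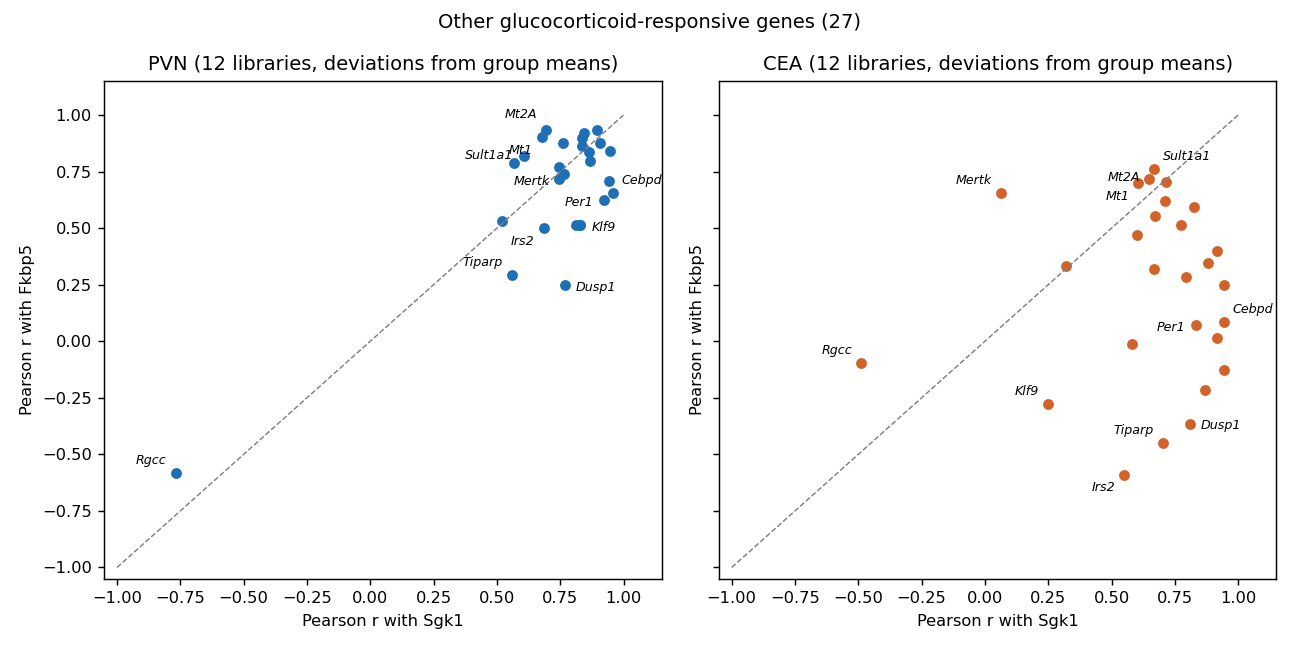
Pearson r with Sgk1 (horizontal) and with Fkbp5 (vertical) of 27 other glucocorticoid-responsive genes over the 12 libraries of each region, with the line of equal r dashed. In the CEA 21 of 27 points lie below the line, and in the PVN 15 of 27.

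Over all genes with a symbol, the 3 most like each of the 8 were found by Pearson r of log2 CPM deviations from region means over 24 libraries, as a description. For Sgk1 they were Plekhf1 (r = 0.95), Pdk4 (0.92) and Mtmr2 (0.92). For Pdk4 they were Arrdc2 (0.94), Plekhf1 (0.93) and Sgk1 (0.92), for Errfi1 Plekhf1 (0.89), Pdk4 (0.89) and Sgk1 (0.88), and for Ddit4 Arrdc2 (0.95), Cebpd (0.94) and Plekhf1 (0.93). Plekhf1 or another of the 8 genes was thus among the 3 nearest for each of these 4. For Tsc22d3 they were Sephs2 (0.93), Ddit4 (0.92) and Cebpd (0.91), and for Cdkn1a Fen1 (0.92), Rhob (0.89) and Sephs2 (0.89). The genes nearest to Fkbp5 were Pcdh20 (0.89), AC128848.1 (0.84) and Mt2A (0.84), and those nearest to Zbtb16 Rin2 (0.84), Galnt15 (0.84) and Mertk (0.82). None of the 3 genes nearest to Fkbp5 or to Zbtb16 was among the 3 nearest to another of the 8.

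The other glucocorticoid-responsive genes were also read by treatment, 27 or 28 of 30 listed passing the filter. By edgeR, 0 passed an adjusted p of 0.05 in any comparison of treatments. In HT against NC, 22 of 27 had positive log2 fold changes in the PVN (median 0.29) and 20 of 27 in the CEA (median 0.38), beside the -0.01 and 0.02 over all genes given above. Without PVN HT replicate 3 the count was 9 of 27 (median -0.20), and without CEA HT replicate 2 it was 8 of 27 (median -0.12). At an unadjusted p under 0.05, 2 of 27 were higher and 1 lower in the PVN, a share near the background of 11.0% of all genes. These were Sult1a1 (log2 fold change 1.78, SE 0.52, adjusted p = 0.418), Hif3a, a hypoxia-inducible factor gene (2.54, SE 1.05), and Rgcc (-0.49, SE 0.17). In the CEA, where 3.75% of all genes passed, 3 of 27 were higher, Sult1a1 (2.69, SE 0.57, unadjusted p = 0.00161, adjusted p = 0.918), Mt2A (1.62, SE 0.46) and Cebpb (1.02, SE 0.34), and 1 lower, Irs2 (-0.42, SE 0.16). Without single libraries these counts ran from 1 to 7 higher and 0 to 2 lower in the PVN, and from 2 to 7 higher and 0 to 3 lower in the CEA. In SEA against HT, 1 of 27 was lower in the PVN, Sult1a1 (-1.56, SE 0.48), and 1 higher, Rgcc (0.30, SE 0.11), against 4.38% of all genes. In the CEA 3 of 27 were lower, against 3.07% of all genes, and 0 higher, with values for Mt2A (-1.84, SE 0.46), Sult1a1 (-1.89, SE 0.55) and Cebpb (-0.84, SE 0.34). HT against NC and SEA against HT share the HT libraries.

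EA against SEA used libraries of neither NC nor HT, but it shares the SEA libraries with SEA against HT. Its counts were not repeated without single libraries. There 3 of the 27 genes were higher at an unadjusted p under 0.05 in the PVN, Sult1a1 (1.40, SE 0.43), Mt2A (1.48, SE 0.50) and Acer2, a ceramidase gene (0.60, SE 0.22), against 5.21% of all genes in either direction. In the CEA 4 were higher, Mt2A (1.21, SE 0.39), Acer2 (0.61, SE 0.21), Sult1a1 (1.14, SE 0.44) and Hif3a (1.81, SE 0.77), against 1.99%. Their adjusted p-values were 0.917 in the PVN and 0.9999 in the CEA. Of the 8 genes, 0 passed unadjusted in this comparison in either region. In operated against NC, 3 genes of the list of 27 were higher and 1 lower unadjusted in the PVN, a share below the background of 29.8%, namely Sult1a1 (1.21, SE 0.48), Hif3a (1.89, SE 0.86), Mertk (0.34, SE 0.14) and Rgcc (-0.32, SE 0.11), and 2 of 28 were higher in the CEA, against 2.82% of all genes, Sult1a1 (1.80, SE 0.50) and Map3k6 (1.23, SE 0.54).

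Genes that act on the hormone supply, folding and cofactors of the receptor made up a further list of 18 with the receptor itself, of which 15 or 16 were tested. The glucocorticoid receptor gene was not analysed here. In HT against NC in the PVN, 2 of 16 were higher and 3 lower at an unadjusted p under 0.05, against 11.0% of all genes, and without single libraries these counts ran from 0 to 4 higher (4 without NC replicate 2) and 1 to 6 lower (1 without HT replicate 3 or NC replicate 3, 6 without NC replicate 2). The hormone genes Avp (-0.55, SE 0.17) and Crh (-0.78, SE 0.27) and the HSP90 co-chaperone gene Ptges3 (-0.27, SE 0.11) were lower, and the corepressor gene Ncor1 (0.39, SE 0.14) was higher, as was the coactivator gene Ncoa2 (0.79, SE 0.33), which was named after its values were seen. In EA against HT in the PVN 3 of 16 were higher, against 5.67% of all genes, Avp (0.46, SE 0.14), Crh (0.57, SE 0.21) and Hsp90ab1 (0.12, SE 0.04). In SEA against HT, where 4.38% of all genes passed, Avp was the 1 gene of 16 higher (0.53, SE 0.16), with Crh at 0.36 (SE 0.21). Between EA and SEA, Avp was at -0.069 (SE 0.13) and Crh at 0.22 (SE 0.12), neither of which passed. In PVN HT replicate 3, where all 8 target genes were at their group's highest, the neuroendocrine markers that include Avp and Crh were at their lowest. In the CEA, where 3.75% of all genes passed after surgery and 3.19% with EA, Hsd11b1, whose enzyme regenerates active hormone, was the 1 gene higher in HT against NC (0.60, SE 0.20, adjusted p = 0.918), and Crh the 1 higher in EA against HT (1.48, SE 0.38, adjusted p = 0.930), with Crh at 1.02 (SE 0.59) in SEA against HT and 0.46 (SE 0.49) in EA against SEA. The count for HT against NC was 0 without NC replicate 1 or HT replicate 3. In operated against NC in the PVN 4 of 16 were higher and 3 lower, against 29.8% of all genes, with Ncor1 (0.35, SE 0.09), Ncoa2 (0.74, SE 0.22), the mineralocorticoid receptor gene Nr3c2 (0.66, SE 0.22) and Ptges3 (-0.22, SE 0.07) at the smallest p, and in the CEA Hsd11b1 was higher (0.40, SE 0.15). By edgeR 0 genes of the list passed an adjusted p of 0.05 in any comparison of treatments.

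Between regions, 14 of 28 other responsive genes were higher in the CEA and 2 lower at an adjusted p under 0.05, where 27.2% of all genes were higher and 29.7% lower, and the share called in either direction was near the 56.9% of all genes. Among the 14 were Klf9 (1.24, SE 0.16), Rhou (1.01, SE 0.13), Rgcc (0.64, SE 0.09) and Mertk (0.57, SE 0.10), the 4 genes of the list with the smallest p. Of the 16 receptor and chaperone genes 3 were higher and 10 lower, beside the same shares. Hsd11b1 was higher (1.13, SE 0.09), and Crh (-2.44, SE 0.21), Avp (-3.40, SE 0.30) and the co-chaperone gene Stip1 (-0.51, SE 0.05) were lower. Their medians were 0.41 and -0.19, beside 0.64 for the 8 genes and -0.01 over all genes tested.

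Library measures were set beside Sgk1 and Fkbp5, as 1 gene of each set. Across the 12 libraries of each region, 52 relations with total counts, the mitochondrial share and summed cell type markers were computed on deviations from group means, and 0 passed an adjusted p of 0.05. The smallest was that of Fkbp5 with the thalamus markers in the PVN (r = -0.64, rho = -0.54, exact permutation p = 0.00463, r = -0.59 without the 2 farthest libraries, adjusted p = 0.241). Fkbp5 also went up with the markers of central amygdala and striatum in the CEA (r = 0.62, rho = 0.68, exact permutation p = 0.0386, r = 0.83 without 2 libraries, adjusted p = 0.334). The oligodendrocyte markers in the CEA went up with Sgk1 (r = 0.74, rho = 0.59, exact permutation p = 0.0208, r = 0.60 without the 2 farthest libraries, adjusted p = 0.271), while their r with Fkbp5 was -0.31 (adjusted p = 0.691). Their sum was 46152 CPM in CEA NC replicate 2, 44661 in SEA replicate 3, 40874 in HT replicate 2 and 35771 in EA replicate 2, the library with the highest Sgk1 of each group, and at most 33880 CPM in the other CEA libraries. In the PVN the astrocyte markers went up with Sgk1 (r = 0.81, rho = 0.80, exact permutation p = 0.0208, r = 0.61 without 2 libraries, adjusted p = 0.271). The vessel markers went down with Fkbp5 in the PVN (r = -0.96, rho = -0.88, exact permutation p = 0.0100, r = -0.89 without 2 libraries, adjusted p = 0.261) and with Sgk1 in the CEA (r = -0.81, rho = -0.67, exact permutation p = 0.0293, r = -0.61, adjusted p = 0.305). The part of these markers in the co-variation of the 8 genes was not tested.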

How the data were processed

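mRNA libraries of PVN and CEA tissue were strand-specific, and the deposited table holds whole-number read counts per gene without normalization. Per the methods, the authors mapped reads with HISAT2 and counted them with featureCounts; versions are not given in the sources used here. The methods name mRatBN7.2 and the processing notes a human build, so no coordinates from the table are printed. A stray second header line (1 line), which exchanges CEA EA replicates 2 and 3, was left out, and numbers follow the titles. Groups came from titles and treatment labels.

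The 8 genes and the gene lists were chosen with earlier results of these data known. All 8 were named. Fold changes were printed for unadjusted p under 0.05, for Fkbp5, Sgk1 and Tsc22d3 when HT was compared with NC or EA, and for all 8 in operated against NC, in CEA against PVN and, without the HT library that stood apart, in HT against NC (added after its values were seen). Of the lists, up to 4 genes per comparison with the smallest p were named, and any other was named after its values were seen.

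Each comparison was fitted to all genes in R 4.3.3 with edgeR 4.0.16 (two-sided quasi-likelihood F test, TMM, filterByExpr, Benjamini-Hochberg, threshold 0.05). SE is the absolute log2 fold change over the square root of F. DESeq2 1.42.0 (the study's tool, used there with unadjusted p-values), RLE factors, no filter, a replicate block and leaving out each library were alternatives. Correlations used log2 CPM with a prior count of 2. The tests were checked on simulated data. Same-numbered libraries deviated together, with r of 0.19 to 0.35 in all 3 pairs, in CEA HT against NC and in no other comparison. Libraries held 13152772 to 18607032 counts, and low counts limit Pdk4 and Zbtb16 most. Columns of other samples were 0.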

Additional observations from a re-analysis of the deposited data

How the results depend on the processing

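For the log2 fold changes printed for the 8 genes (37 values, 631 alternatives), 573 alternatives kept the direction and the side of the threshold, 24 lost a call, 3 gained one and 31 changed sign, 3 of them by another alternative than leaving out a library. In PVN HT against NC 1 gene was called at an unadjusted p under 0.05, and in PVN operated against NC 1 by DESeq2 and 0 to 1 when libraries were left out. For CEA against PVN the 5 calls became 3 without the CEA libraries high in choroid plexus markers, an alternative chosen after seeing the data, and 2 to 6 when single libraries were left out. Over all genes, PVN operated against NC gave 11 calls, against 3 with RLE factors, 2316 with DESeq2, 0 with the replicate block and 0 to 5885 when single libraries were left out, the highest without NC replicate 2. PVN HT against NC gave 2, against 4 with no filter, 30 with DESeq2, 0 with all 4 groups in 1 fit and 0 to 3418 without single libraries, the highest again without NC replicate 2. PVN EA against HT gave 16, against 69 with no filter, 100 with DESeq2, 5 with the block, 0 with all 4 groups in 1 fit and 0 to 28 without single libraries. The interaction gave 0, against 1 with DESeq2 and 0 to 693 without single libraries. The other treatment comparisons gave 0, against 3 to 26 with DESeq2 and 0 to 13 under the rest. The correlation alternatives and the direction counts without single libraries in HT against NC were also chosen after seeing the data.

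With the replicate number as a block, the log2 fold change of Sgk1 in PVN HT against NC was -0.10, that of Fkbp5 in PVN EA against HT 0.065 and that of Ddit4 in PVN operated against NC -0.0092, and the block changed no count of calls among the 8 genes. Values whose sign turned when a library was left out ranged as follows. In PVN HT against NC, Fkbp5 ranged from -0.13 to 0.98, Sgk1 from -1.33 to 0.81 and Tsc22d3 from -0.20 to 0.22. In PVN EA against HT, Fkbp5 ranged from -0.46 to 0.72, Sgk1 from -0.25 to 1.91 and Tsc22d3 from -0.13 to 0.29. In PVN operated against NC, Sgk1 ranged from -0.070 to 0.87, Cdkn1a from -0.12 to 0.29 and Ddit4 from -0.13 to 0.25. In CEA HT against NC, Sgk1 ranged from -1.11 to 0.93 and Tsc22d3 from -0.20 to 0.38. In CEA EA against HT, Fkbp5 ranged from -0.62 to 0.11, Sgk1 from -0.27 to 1.74 and Tsc22d3 from -0.12 to 0.47. Errfi1 in CEA operated against NC ranged from -0.039 to 0.29, Zbtb16 in CEA against PVN from -0.37 to 0.12, and the CEA correlation of Fkbp5 with Sgk1 from -0.51 to 0.36. Other causes than the libraries left out were not tested. Of the 3 genes most like it, Fkbp5 kept 0 and Zbtb16 1 among the nearest 20 in the CEA libraries alone, and Cdkn1a 0 in the PVN libraries alone.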
